A study of Mus musculus with 12 samples.

Results

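The 10 genes described here, Mpo, Elane, Prtn3, Ctsg, Ltf, Lcn2, Camp, Ngp, S100a8 and S100a9, encode proteins that neutrophils store in their granules or hold in their cytosol. They were taken by name from the array's annotation, with control spots left out. They have 12 probes among the 56605 of the array, with 2 each for Mpo and Lcn2 and 1 for each of the others, and all 10 passed the filter on dim probes, as 10 of 33179 genes tested. Each gene was represented by its brighter probe.

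The cells were haematopoietic stem cells from male mice, sorted from marrow that had been enriched for Kit-bearing progenitors, by absence of lineage markers, presence of Sca-1 and Kit, and SLAM family markers. There were 4 groups of 3 mice, with 1 single-colour array per mouse. Controls were sham-operated. POL5551, which blocks the chemokine receptor CXCR4, was given as a continuous infusion of 100 mg/kg per day, and those cells were taken 14 days after it began. G-CSF, granulocyte colony-stimulating factor, which drives neutrophil production, was injected at 100 ug/kg every 12 h, for a total of 4 doses over 2 days or 9 doses over 5 days. According to the labels, sham mice had no injections and G-CSF mice no surgery that is named, and strain and age are not stated there. Each value is a log2 signal relative to the 75th percentile of its array and is called a level. Levels are compared between arrays for 1 probe, never between probes. A sum over a list adds linear levels, so its brightest probes weigh most.

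Neutrophil precursors make their granules in order. Primary granules, filled at the promyelocyte stage, hold myeloperoxidase and the serine proteases. Secondary granules, filled later, hold lactoferrin and other antimicrobial proteins, and S100a8 and S100a9 accumulate in the cytosol as the calprotectin heterodimer. Stem cells stand upstream of all these stages, and low transcript levels of the primary granule genes are known in early progenitors.

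In a bulk sample, fewer cells of a type and less RNA per cell cannot be told apart. With 3 arrays a group, their number limits the precision. No spot was saturated, the signal's 75th percentile lay between 1901 (sham 1) and 6810 (5-day mouse 1), and the share of probes well above background between 75.3% and 85.5%. All 12 markers of the sorted stem cell were tested, and Kit lay between 2.33 and 2.94 on the 12 arrays. Sham 1 stood apart: its level of Ly6a, which encodes Sca-1, was -2.05, against 0.64 and 0.50 on shams 2 and 3. The median level of off-tissue genes (olfactory, vomeronasal, taste receptor and keratin-associated genes, 1535 probes) was -1.82 on sham 1 and -3.72 to -3.58 on the other shams. It was -5.50 to -4.42 after POL5551, -2.98 to -2.68 after 2 days of G-CSF and -4.26 to -3.51 after 5 days. With that median as a covariate limma called 0 genes between POL5551 and sham, against 882 without it, and 1840 had an unadjusted p under 0.05. The 2-day arrays were all on 1 slide that held no other group, so that slide and that group cannot be told apart. No slide held a 5-day array together with a sham or 2-day array, so those comparisons also lie between slides.

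No member of the set passed the threshold in any comparison. In limma's test, with Benjamini-Hochberg adjustment across the genes tested and a threshold of 0.05, 2.66% of genes were called between POL5551 and sham, 0.0362% between 2 days of G-CSF and sham, and 0.0603% between 5 days and sham. No gene was called between 5 and 2 days of G-CSF, where 5317 genes had an unadjusted p under 0.05, S100a8 among them. Between POL5551 and 5 days of G-CSF 0.0603% were called, and 1.53% in the F test over the 4 groups. The lowest adjusted p of a member was 0.0901, for Ngp after POL5551. At an unadjusted p under 0.05 stood 2 members after POL5551 (Ngp and S100a9), where 35.9% of all genes did, none after 2 days (8.89% of all genes) and 1, Prtn3, after 5 days (11.2%). Prtn3 alone did so in the F test (34.5% of all genes), and no member did between POL5551 and 5 days (12.1% of all genes). The absence of a call bounds little here. In simulated data for POL5551 against sham, 24% of changes of 2 on the log2 scale were recovered and 76% of changes of 4. Only 50 genes per size among 32957 were changed there, which makes the adjustment stricter than with many changed genes. These rates therefore need not hold for the data.

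Most members lay above 0 in each comparison with sham. Their median log2 difference from sham was 0.73 after POL5551, with 8 of 10 above 0, while the median over all genes was -0.58 and 34.4% of genes lay above 0. Scaling moved that background: with each array centred on its median the median over all genes was -0.12, and of the genes called 23.4% were higher after POL5551, in place of 6.58%. Such centring subtracts 1 value per array, so the members moved alike, as Mpo from 0.65 to 1.12 and Ctsg from -0.45 to 0.01. The gap between members and background thus stayed. After 5 days of G-CSF the members' median was 0.66, with 7 of 10 above 0, against -0.15 over all genes and 41.1% above 0. After 2 days it was 0.24, with 7 of 10 above 0, against 0.09 and 56.4%. Between 5 and 2 days of G-CSF the members' median was 0.41, with 7 of 10 above 0, and that of all genes -0.28, with 38.3% above 0. No member lay wholly below sham, as 27.8% of all genes did after POL5551, 5.51% after 2 days and 8.21% after 5 days of G-CSF. The comparisons with sham share the same 3 control arrays, so their differences are not independent. The widest intervals were those of Ngp, S100a8 and S100a9, as the plot of differences from sham shows.

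**Figure D1:**
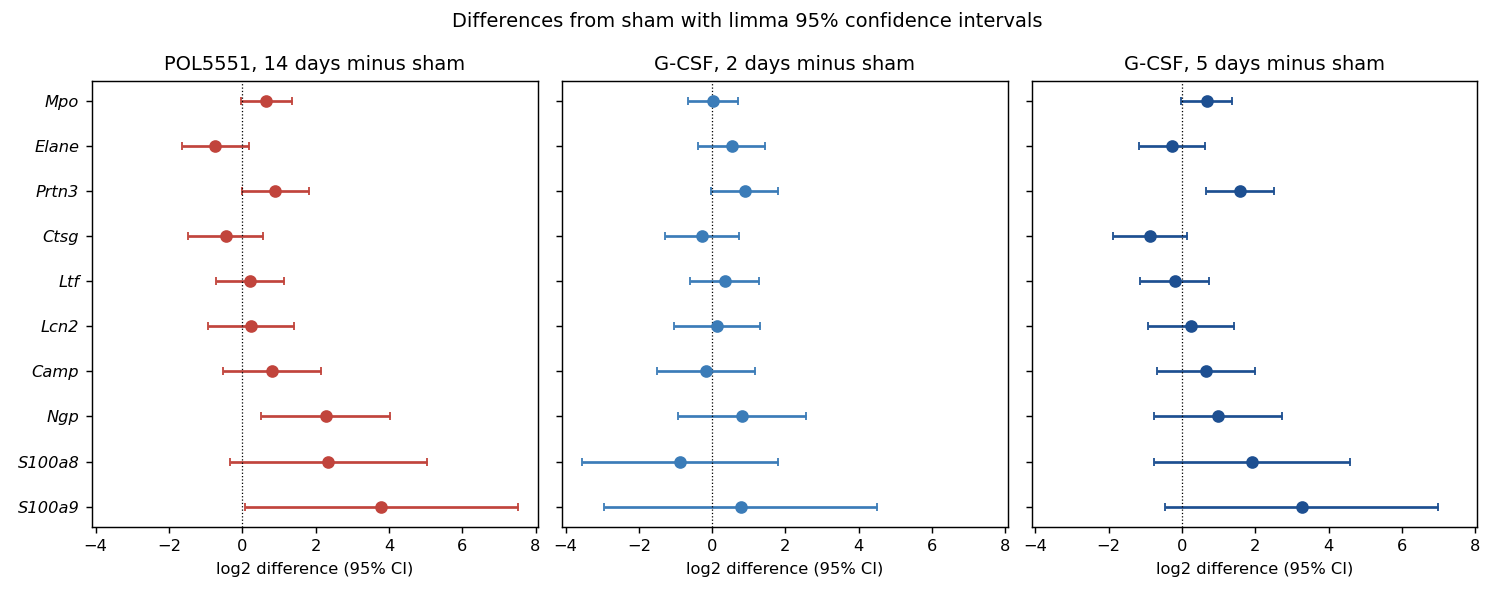
Log2 difference of each of the 10 genes from sham (horizontal axis) after POL5551, 2 days and 5 days of G-CSF, with limma's 95% confidence interval as bars. The intervals of Prtn3 after 5 days and of Ngp and S100a9 after POL5551 lie above 0, and none of the 10 genes passed the threshold after adjustment over all genes.

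Prtn3 encodes proteinase 3, a serine protease of primary granules. Its probe, shown because this gene had the lowest p of the members after 5 days of G-CSF, lies within an interval of 817 bases on chromosome 10, 79343869 to 79344685 (mm9, plus strand), and so joins sequence from both sides of an intron.
Prtn3 probe: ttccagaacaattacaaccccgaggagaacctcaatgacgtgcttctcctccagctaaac
The sham levels were -1.07, 0.30 and 0.67, and those after POL5551 0.98, 0.70 and 0.90. After 2 days of G-CSF the levels were 0.77, 0.86 and 0.94, and after 5 days 1.61, 1.83 and 1.21. Every treated mouse lay above every sham mouse, and the 5-day mice lay above all others. Of all genes, 9.27% lay wholly above sham after POL5551, 6.34% after 2 days and 4.22% after 5 days. The mean was 1.55 ± 0.31 (SD, n = 3) after 5 days against -0.03 ± 0.92 in sham. The log2 difference was 1.58 (SE 0.42, 95% interval 0.67 to 2.50, limma adjusted p = 0.297). The difference was 0.89 (SE 0.42) both after POL5551 (adjusted p = 0.145) and after 2 days (adjusted p = 0.569). Between 5 and 2 days it was 0.69 (SE 0.42, adjusted p = 0.396), with no overlap of the arrays, as for 11.4% of all genes. The order of the group means was 5 days, POL5551, 2 days and sham, and POL5551 and 2 days, both at 0.86, did not differ beyond their spread. Sham 1 was the lowest array by far. Without it the differences were 0.37 after POL5551, 0.37 after 2 days and 1.06 after 5 days (adjusted p = 0.443, 0.400 and 0.305). With the off-tissue level as a covariate the POL5551 difference was -0.41 (SE 0.40), the opposite direction. In that fit the differences after 2 and 5 days were 1.03 and 0.93 (limma adjusted p = 0.185 and 0.458). The off-tissue level did not overlap between POL5551 and sham arrays, so the 2 cannot be told apart well.

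Elane encodes neutrophil elastase and is the next gene after Prtn3 on chromosome 10. Its level was -1.99, -2.36 and -3.36 in sham and -3.02, -3.89 and -3.01 after POL5551. It was -1.99, -2.28 and -1.87 after 2 days of G-CSF and -2.48, -3.24 and -2.82 after 5 days. The 5-day mice all lay below the 2-day mice, as for 23.9% of all genes, while sham spanned most of the range. The difference between 5 and 2 days was -0.80 (SE 0.41, 95% interval -1.71 to 0.10, limma adjusted p = 0.347), opposite in sign to that of Prtn3. That contrast between the neighbours was not tested. From sham Elane differed by -0.74 after POL5551, 0.53 after 2 days and -0.28 after 5 days (adjusted p = 0.198, 0.777 and 0.794). The order of the means was 2 days, sham, 5 days and POL5551, and each neighbour overlapped the next.

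The upstream sequences of these neighbours are shown because the pair gave differences of opposite sign between 5 and 2 days. They are the 250 bases before each start on the plus strand of GRCm38.p6 from RefSeq, chr10:79879417-79879666 for Prtn3 and chr10:79886062-79886311 for Elane. Both strands of every promoter were searched for 2 motifs, GAGGAA, a core bound by PU.1, and TTNNGNAA, a form bound by C/EBP factors. Capitals mark every match, and the matches do not overlap in the 4 promoters printed here.
Prtn3 promoter: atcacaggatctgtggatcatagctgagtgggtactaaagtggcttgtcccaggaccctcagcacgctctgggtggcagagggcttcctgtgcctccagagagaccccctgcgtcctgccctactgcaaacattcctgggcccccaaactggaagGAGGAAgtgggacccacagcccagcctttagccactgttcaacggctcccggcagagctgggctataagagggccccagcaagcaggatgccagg
Elane promoter: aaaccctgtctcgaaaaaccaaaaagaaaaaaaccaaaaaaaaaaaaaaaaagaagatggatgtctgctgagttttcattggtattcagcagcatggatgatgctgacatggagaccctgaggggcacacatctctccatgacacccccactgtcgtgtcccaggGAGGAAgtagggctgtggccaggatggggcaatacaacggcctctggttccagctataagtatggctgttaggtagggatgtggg
Each held GAGGAA once, starting 95 bases before the Prtn3 start and 85 before the Elane start. The promoters of all 4 primary granule genes held that motif and so did 3 of the other 6 members, against 23.3% of 32851 mouse promoters. None of the 4 held TTNNGNAA, which 5 of the other 6 members and 36.8% of promoters held. A match is a run of letters and not a measured site.

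Mpo encodes myeloperoxidase, the main enzyme of primary granules, and had the smallest spread between mice of the set. Its brighter probe, on chromosome 11 from 87617102 to 87617877 (mm9), gave -1.27, -0.46 and -1.03 in sham and 0.07, -0.27 and -0.59 after POL5551. The levels were -0.87, -0.96 and -0.87 after 2 days of G-CSF and 0.06, -0.47 and -0.32 after 5 days. All 5-day mice lay above all 2-day mice, as for 11.4% of all genes, while sham overlapped both. The log2 difference from sham was 0.65 after POL5551 (SE 0.32, 95% interval -0.04 to 1.35, limma adjusted p = 0.155) and 0.68 after 5 days (SE 0.32, -0.02 to 1.37, adjusted p = 0.456). After 2 days it was 0.02 (-0.67 to 0.71, adjusted p = 0.993). The dimmer probe, well above background on 8 of 12 arrays, gave differences of -0.07, 0.45 and -0.88 after POL5551, 5 and 2 days. The probes thus disagreed in sign for POL5551 and for 2 days.

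Ctsg encodes cathepsin G, the remaining protease of the primary granule set. Its levels were -1.68, -1.27 and -2.64 in sham, -3.04, -2.38 and -1.51 after POL5551, -2.16, -2.47 and -1.79 after 2 days and -2.78, -2.35 and -3.06 after 5 days. Each group overlapped sham. The differences from sham were -0.45, -0.28 and -0.87 after POL5551, 2 and 5 days (SE 0.46, limma adjusted p = 0.454, 0.921 and 0.497). The 4 primary granule genes therefore held both signs, with Mpo and Prtn3 above sham and Elane and Ctsg below it after POL5551 and after 5 days. For Ctsg after POL5551 the sign was lost with quantile normalization, median scaling and the authors' values, each at 0.01.

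**Figure D2:**
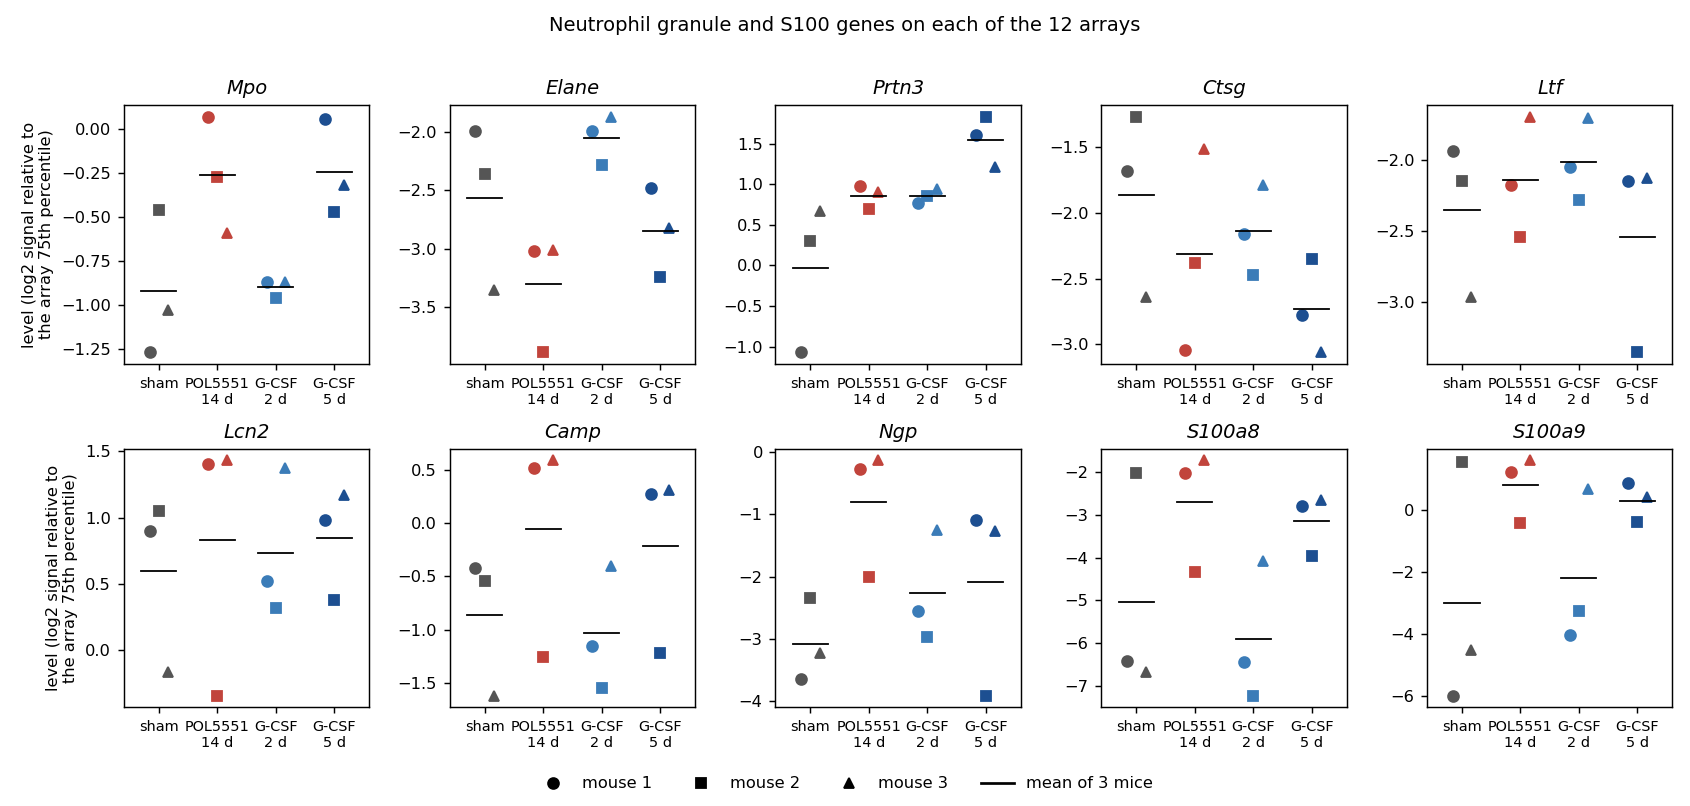
Level of each of the 10 genes (log2 signal relative to the array's 75th percentile, a scale of its own in each panel) for the 3 mice of each group, with the mean as a line and the mouse number as the symbol. Prtn3 lies above sham in every treated mouse, while S100a9 ranges from -5.99 to 1.52 within sham alone.

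Among the secondary granule genes Ltf and the brighter probe of Lcn2 showed the least separation. Ltf, lactoferrin, an iron-binding protein, stood at -1.94, -2.15 and -2.96 in sham and at -2.18, -2.54 and -1.70 after POL5551. After 2 days of G-CSF it was at -2.05, -2.28 and -1.71, and after 5 days at -2.15, -3.35 and -2.13. The groups overlapped throughout, with differences from sham of 0.21, 0.34 and -0.19 (SE 0.43) after POL5551, 2 and 5 days, and 95% intervals that reached from -1.13 to 1.27 over the 3.

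Lcn2, lipocalin 2, binds the siderophores with which bacteria take up iron. Its levels were 0.90, 1.05 and -0.16 in sham, 1.40, -0.34 and 1.43 after POL5551, 0.52, 0.32 and 1.37 after 2 days and 0.98, 0.38 and 1.17 after 5 days. The differences from sham were 0.23, 0.14 and 0.25 (SE 0.54, intervals from -1.04 to 1.42 over the 3), and mice of a group differed by more than the groups did. The second probe, on chromosome 2 from 32241037 to 32241281 (mm9), was well above background on POL5551 mice 1 and 3 and on 5-day mouse 1, and on none of the sham or 2-day arrays. With the mean of both probes the POL5551 difference was 0.96 (limma adjusted p = 0.306), a size that includes those dim sham values.

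Camp encodes the precursor of cathelicidin, an antimicrobial peptide. Its levels were -0.42, -0.54 and -1.62 in sham and 0.52, -1.26 and 0.59 after POL5551. After 2 days they were -1.15, -1.55 and -0.40, and after 5 days 0.27, -1.22 and 0.31. In the POL5551 and 5-day groups mouse 2 fell within the sham range and the other mice lay above it. The difference from sham was 0.81 after POL5551 (SE 0.61, 95% interval -0.53 to 2.15, limma adjusted p = 0.311) and 0.65 after 5 days (-0.69 to 1.99, adjusted p = 0.673).

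Ngp encodes neutrophilic granule protein, a cystatin relative of secondary granules, and gave the lowest adjusted p of the set. Its probe is shown for that reason. It lies within 549 bases on chromosome 9, 110324266 to 110324814 (mm9, plus strand), across an intron, and was well above background on all 12 arrays.
Ngp probe: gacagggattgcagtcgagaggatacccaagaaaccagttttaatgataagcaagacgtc
The sham levels were -3.65, -2.35 and -3.24, and those after POL5551 -0.27, -2.01 and -0.13. All 3 POL5551 mice lay above all sham mice, as for 9.27% of all genes, and POL5551 mouse 2 lay close to sham 2. After 2 days of G-CSF the levels were -2.56, -2.98 and -1.25, and after 5 days -1.09, -3.92 and -1.26. The 5-day mouse 2 was the lowest of the 12 arrays. The mean was -0.81 ± 1.05 (SD, n = 3) after POL5551 against -3.08 ± 0.66 in sham. The log2 difference was 2.27, or 4.84-fold (SE 0.80, 95% interval 0.52 to 4.02, limma adjusted p = 0.0901). After 2 and 5 days it was 0.82 and 0.99 (adjusted p = 0.839 and 0.624). Neighbours in the order POL5551, 5 days, 2 days and sham overlapped.

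S100a8 and S100a9 encode the subunits of calprotectin, which binds calcium and zinc and is among the most abundant proteins of the neutrophil cytosol. They lie next to each other on chromosome 3, on opposite strands. The S100a8 probe, shown because this gene had the largest difference between 5 and 2 days, lies from 90473778 to 90473837 (mm9, plus strand), and the S100a9 probe from 90496573 to 90496632 (minus strand).
S100a8 probe: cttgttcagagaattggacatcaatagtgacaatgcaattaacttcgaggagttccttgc
The 250 bases upstream of both starts are shown because these neighbours followed each other over the arrays. They are chr3:90668821-90669070 for S100a8 (plus strand) and chr3:90695722-90695971 for S100a9 (minus strand, printed 5′ to 3′ along the gene), on GRCm38.p6.
S100a8 promoter: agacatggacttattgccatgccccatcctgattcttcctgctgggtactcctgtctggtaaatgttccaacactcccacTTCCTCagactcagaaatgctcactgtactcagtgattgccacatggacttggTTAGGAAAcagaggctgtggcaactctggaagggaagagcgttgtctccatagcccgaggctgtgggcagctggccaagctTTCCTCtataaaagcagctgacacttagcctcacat
S100a9 promoter: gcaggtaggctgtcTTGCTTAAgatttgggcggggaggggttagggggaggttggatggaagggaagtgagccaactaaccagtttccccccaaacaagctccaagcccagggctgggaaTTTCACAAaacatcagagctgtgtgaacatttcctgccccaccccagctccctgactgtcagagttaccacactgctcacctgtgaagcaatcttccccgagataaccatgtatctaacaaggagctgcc
The motif TTNNGNAA occurred once upstream of S100a8 and 2 times upstream of S100a9. GAGGAA occurred 2 times upstream of S100a8, both on the opposite strand and so printed as its reverse complement, and not in the S100a9 window.

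S100a8 levels were -6.43, -2.03 and -6.68 in sham and -2.03, -4.33 and -1.73 after POL5551. They were -6.44, -7.23 and -4.08 after 2 days of G-CSF and -2.80, -3.96 and -2.66 after 5 days. The probe was well above background on all POL5551 and 5-day arrays, but in sham only on mouse 2 and in the 2-day group only on mouse 3. The 5-day mice all lay above the 2-day mice, as for 11.4% of all genes, with a log2 difference of 2.78 (SE 1.22, 95% interval 0.10 to 5.46, limma adjusted p = 0.303). From sham S100a8 differed by 2.35 after POL5551 (SE 1.22, -0.33 to 5.04, adjusted p = 0.174), by 1.91 after 5 days (adjusted p = 0.556) and by -0.87 after 2 days (adjusted p = 0.903).

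S100a9 levels were -5.99, 1.52 and -4.52 in sham and 1.20, -0.42 and 1.58 after POL5551. They were -4.05, -3.27 and 0.67 after 2 days and 0.84, -0.41 and 0.41 after 5 days. Sham mouse 2 stood close to the highest POL5551 mouse, and 2-day mouse 3 stood with the 5-day mice, so that every group overlapped sham. Sham 1 was the only array on which the probe was not well above background. The difference from sham was 3.78 after POL5551, or 13.8-fold (SE 1.70, 95% interval 0.06 to 7.51, limma adjusted p = 0.136), 3.28 after 5 days (-0.45 to 7.0, adjusted p = 0.487) and 0.78 after 2 days (-2.95 to 4.50, adjusted p = 0.944).

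For both S100 genes the call depended on sham mouse 2. Without that array S100a9 was 6.04 higher after POL5551 (SE 1.20, limma adjusted p = 0.0286) and S100a8 was called too (adjusted p = 0.0414), and both passed the F test (adjusted p = 0.0393 and 0.0469). On neither remaining sham array was the S100a8 probe well above background, so its size there was not measured. Against the dimmest probe those arrays measured above background it was 4.24-fold higher. That is a rough guide and not a strict bound, as an undetected probe can read above that level. In that fit 10.2% of all genes were called between POL5551 and sham and 8.0% in the F test. After 5 days neither passed then (adjusted p = 0.168 and 0.255). Without sham 1 the POL5551 differences were 2.29 and 1.66, and with the off-tissue covariate 0.79 and 1.25, for S100a9 and S100a8.

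The spread between mice of a group set the S100 genes apart from the granule proteases. The within-group SD over the 4 groups was 0.30 for Mpo, larger than that of 8.1% of tested genes, and 0.49 to 0.58 for Elane, Prtn3, Ltf and Ctsg. It was 0.70 for Lcn2, 0.81 for Camp and 1.1 for Ngp, larger than that of 62.1%, 71.4% and 84.9% of genes. For S100a8 it was 1.74, larger than that of 97.4% of genes, and for S100a9 2.44, larger than that of 99.9%. These 2 values include readings near the floor. The S100a8 probe was well above background on 8 of 12 arrays and that of S100a9 on 11, against all 12 for the proteases. The median over all tested genes was 0.59.

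**Figure D3:**
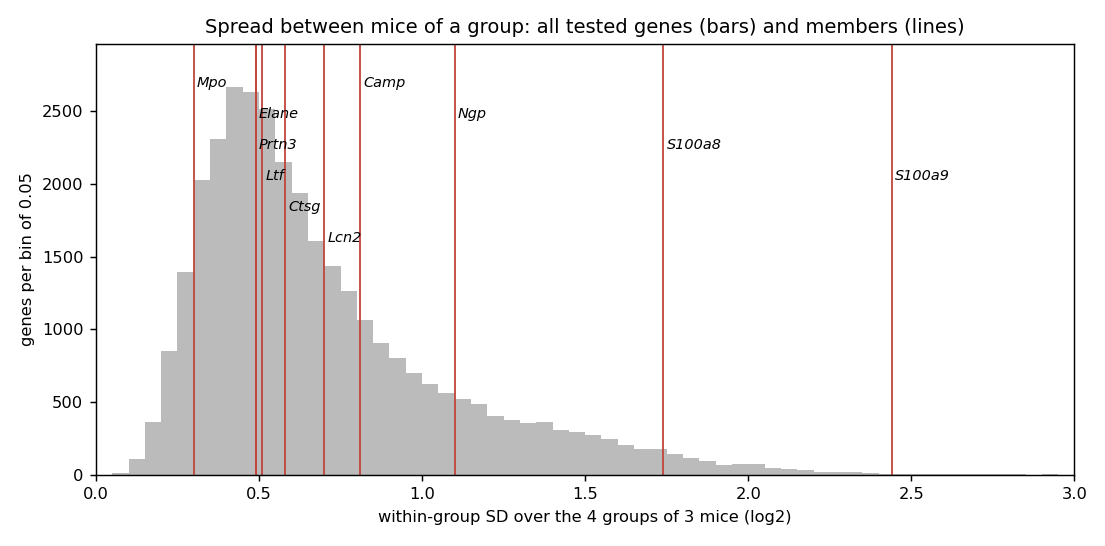
Number of tested genes (vertical axis) by within-group SD of the log2 level over the 4 groups of 3 mice (horizontal axis, bins of 0.05), with each of the 10 genes as a line. S100a8 at 1.74 and S100a9 at 2.44, both with some readings near the floor, lie in the upper tail, and Mpo at 0.30 lies below most genes.

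The same mice were low or high for most members. Of the 10 genes, 8 were lowest in their group on POL5551 mouse 2, 8 on 2-day mouse 2 and 8 on 5-day mouse 2. On 2-day mouse 3 all 10 were the highest of their group, and on POL5551 mouse 3 8 were. In sham, mouse 2 was the highest for 6 of the 10 and mouse 3 the lowest for 6. Equal mouse numbers do not mark pairs between groups. This order of the mice was seen in the data and was not tested. The share of all genes that were lowest or highest on each of these arrays is not given, so the counts cannot be called particular to the members.

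Markers of marrow stromal cells, which surround stem cells in their niche, were in part low or high on the same mice of the treated groups. Cxcl12, the ligand of CXCR4, was at -0.70, -1.03 and -1.81 in sham, 2.70, 1.13 and 2.86 after POL5551, -1.76, -1.64 and 2.08 after 2 days of G-CSF and 2.65, 0.74 and 2.36 after 5 days. It was lowest on POL5551 mouse 2 and 5-day mouse 2 and highest on 2-day mouse 3, as were Ngp, Camp and both S100 genes. Of the 7 stromal markers, 6 were lowest on POL5551 mouse 2 and the same 6 on 5-day mouse 2, and all 7 were highest on 2-day mouse 3. The exception was Pdgfrb, lowest on mouse 3 in the POL5551 and 5-day groups. Other extremes differed. Of the 7 markers, 5 were lowest on 2-day mouse 1 and 5 highest on POL5551 mouse 1. Of the 10 members, 2 were lowest on that 2-day mouse and 2 highest on that POL5551 mouse. In sham, mouse 2 was the highest for Lepr alone, at -0.45 against -1.42 and -2.54. All 7 were tested, and the log2 of their summed level was 1.39 to 2.19 in sham, 3.45 to 5.23 after POL5551, 1.78 to 4.86 after 2 days and 2.90 to 4.82 after 5 days. Pdgfrb rose by 3.56 after POL5551 (SE 0.68, limma adjusted p = 0.0333), a call lost in 7 of the 13 other settings that tested it and without any of 5 single arrays, with differences down to 1.19. Ebf3 rose too (limma adjusted p = 0.0200). No sham array had its probe well above background, so its size of 10.7-fold, against the dimmest probe measured above background there, is a rough guide. Its call was lost in 4 of the 13 settings and without either of 2 arrays. Both were lost with the off-tissue covariate and with the slide as a fixed block, under which no gene was called. Of the markers of other blood and vessel cells, Gp1ba of megakaryocytes, which encodes a platelet adhesion receptor chain, was the single gene called. Gp1ba was higher after POL5551 (limma adjusted p = 0.0416), a call lost in 7 of the 13 settings and without any of 8 single arrays. With no sham array well above background, its size of 2.62-fold is the same kind of rough guide. The part of the stromal signal in the granule and S100 differences was not tested.

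**Figure D4:**
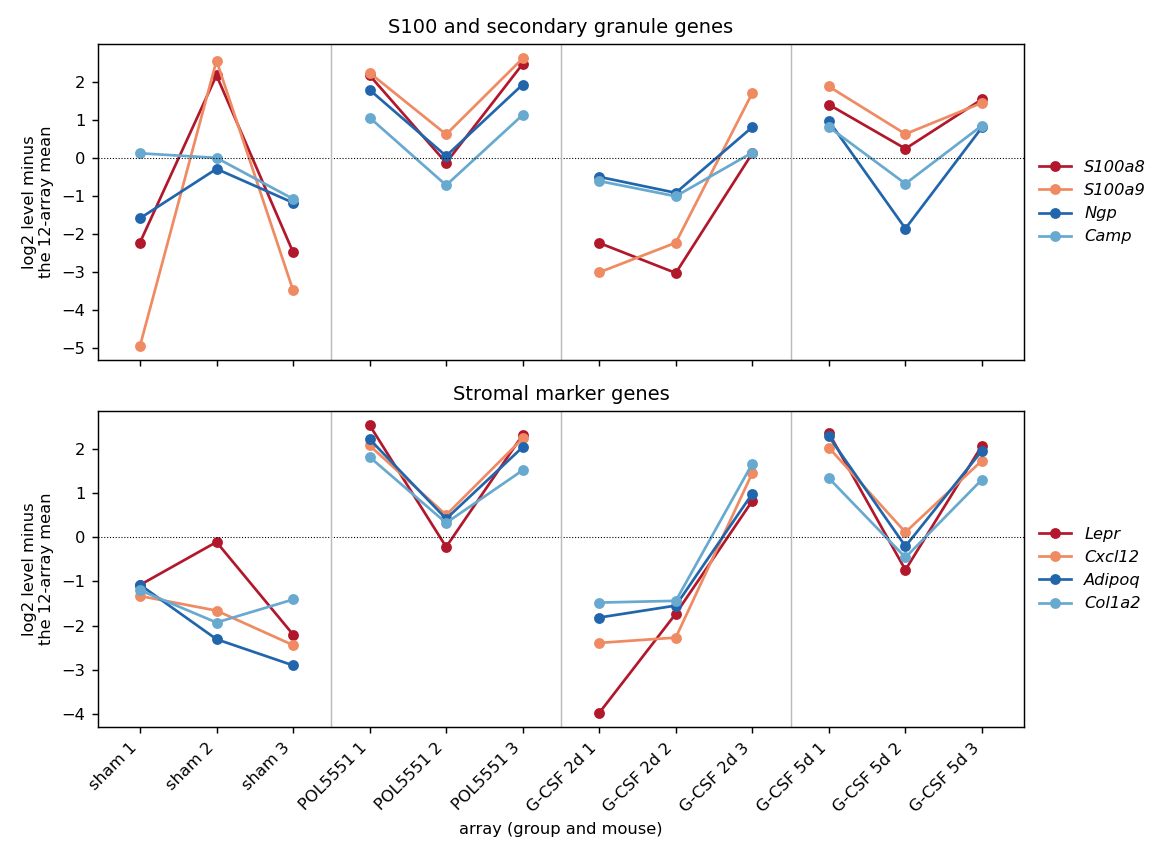
Level on each of the 12 arrays minus the gene's mean over the 12 (log2, vertical axis), for S100a8, S100a9, Ngp and Camp in the upper panel and for the stromal markers Lepr, Cxcl12, Adipoq and Col1a2 in the lower panel, with lines joining the 3 mice of a group. In both panels POL5551 mouse 2 and 5-day mouse 2 lie below the other mice of their groups and 2-day mouse 3 above. Among the sham mice, mouse 2 is the highest for S100a8, S100a9, Ngp and Lepr, and mouse 1 for Camp, Cxcl12, Adipoq and Col1a2.

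For the 3 members whose SD over the 12 arrays exceeded 1, the genes with the nearest profiles among 22512 genes with a symbol were found by the root mean square difference of centred log2 levels. S100a8 lay nearest to Col6a2, a collagen VI chain, at 0.955, then to S100a9 at 1.05 and to Lepr, the leptin receptor, at 1.08. S100a9 lay nearest to S100a8 at 1.05, then to Lepr at 1.56 and Csf1 at 1.58. Ngp lay nearest to Gas6 at 0.490, Islr at 0.563 and Serping1 at 0.595, with Camp in place 11. These are descriptions over 12 arrays that share the group and mouse pattern given above.

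Markers of late neutrophils gave no call. Of 16 such genes 13 were tested, and Ifitm6, Stfa1 and Stfa2l1 were above background on too few arrays. Their median difference from sham was -1.03 after POL5551, 0.28 after 2 days and -0.51 after 5 days, against -0.58, 0.09 and -0.15 over all genes. The log2 of their summed level was 5.81 to 7.31 in sham, 5.25 to 5.63 after POL5551, 5.91 to 6.40 after 2 days and 5.24 to 6.13 after 5 days. Trem1 alone made up most of that sum, at 7.24, 6.06 and 5.75 in sham and 5.15, 5.57 and 5.54 after POL5551. The sum thus does not describe the other genes of the list. Fpr1, a receptor of formyl peptides, and Stfa2, a stefin, had the smallest F test p, at limma adjusted values of 0.0788 and 0.0856. Their differences after POL5551 were -3.15 and -2.60. The probes were well above background on 11 and 9 of 12 arrays, so these sizes may include readings near the floor. Of the 13 genes tested, 3 lay above 0 after POL5551.

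Among 16 other genes of secondary and tertiary granules, all tested, Hp alone was called against sham and Itgb2 alone in the F test. Hp, haptoglobin, which binds free haemoglobin, was at -1.31, -1.52 and -1.48 in sham and 3.00, 0.98 and 2.73 after POL5551. It was at -1.12, -1.57 and 1.47 after 2 days and 2.60, 0.07 and 2.14 after 5 days, with mouse 2 lowest in each treated group and 2-day mouse 3 high, as for Ngp. The stromal marker Cxcl12 was also lowest on mouse 2 after POL5551 and after 5 days and highest on 2-day mouse 3. Which cells gave the Hp signal was not tested. Hp rose by 3.67 after POL5551 (SE 0.86, limma adjusted p = 0.0492), a call lost in 9 of the other settings and without any of 9 single arrays (adjusted p up to 0.861), with differences from 3.26 to 4.30 throughout. Itgb2, the beta-2 integrin chain, differed over the 4 groups (adjusted p = 0.0395), and was highest after POL5551 at 2.75 ± 0.51 (SD, n = 3), followed by 5 days at 1.76 ± 0.28, sham at 1.35 ± 0.40 and 2 days at 0.32 ± 0.38. That call was lost in 5 other settings and without any of 8 single arrays. The median difference of the 16 genes was -0.65 after POL5551, with 6 above 0, and 0.25 after 2 days and -0.47 after 5 days.

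The other lists of granulocyte genes held no called gene. The 14 associates of primary granules, such as their protease inhibitors and sorting proteins, had median differences of 0.49, 0.20 and 0.52 after POL5551, 2 and 5 days. Serpinb1a, an inhibitor of the granule proteases, had differences of 0.76, 0.81 and 1.69 (limma F test adjusted p = 0.100), and Cst7, cystatin F, of 1.02, 2.23 and 1.32 (0.108). The Cst7 probe was well above background on 9 of 12 arrays. The 12 S100 relatives and calprotectin receptors had medians of 0.33, -0.23 and -0.11. There Tlr4, a receptor of calprotectin, had differences of -1.30, 0.50 and -0.87 (F test adjusted p = 0.0615) and S100a6 of 1.16, -0.69 and -0.39 (0.0628). The 12 transcriptional and receptor regulators of granulocytes had medians of -0.04, -0.09 and -0.26. Gfi1, a repressor needed for neutrophil development, had differences of 1.45, 0.06 and 0.17 (F test adjusted p = 0.112) and Cebpd, a C/EBP factor, of 2.14, 1.74 and 2.45 (0.157). The Cebpd probe was well above background on 11 of 12 arrays.

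Arrays of both groups shared slides 1 and 2 for POL5551 and sham, and slide 5 held 1 POL5551 and 1 5-day array. Within slide 1, which held sham 1, S100a9 was 7.19 higher and S100a8 4.40 higher after POL5551, Ngp 3.37 and Prtn3 2.06. Neither S100 probe was well above background on sham 1, so the sizes for S100a9 and S100a8 rest on readings near the floor. The S100a8 probe was not well above background on sham 3 either, which enters the value of slide 2. Within slide 2, with shams 2 and 3 and POL5551 mouse 2, the same differences were 1.08, 0.03, 0.78 and 0.21. Elane was at -1.03 within each slide, and Mpo at 1.34 and 0.47. Ctsg was at -1.36 and -0.43. These 7 genes had the same sign on both slides, while Camp stood at 0.95 and -0.18, Lcn2 at 0.50 and -0.78 and Ltf at -0.23 and 0.01. On slide 5 POL5551 minus 5 days was 2.00 for S100a9, 2.24 for S100a8 and 3.79 for Ngp, against 0.51, 0.44 and 1.29 over all mice.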

How the data were processed

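Per the file headers and the submitters' processing notes, the deposited scanner files hold the red (Cy5) intensity of each spot on a linear scale from Agilent Feature Extraction 11.5.1.1, background-subtracted and not normalized between arrays. The authors' deposited table holds linear intensity values for 49665 probes, all columns with a median of 1080, and its tool is not given in the sources used here. Its columns match scanner files of the same group, but some carry other mouse numbers, and those of the scanner files are used in the text.

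From the deposited intensity, log2 values were computed minus the array's 75th percentile over the 59305 spots that are not controls. Outlier spots (60 to 267 an array) were dropped and repeated spots averaged. A probe was tested if well above background on at least 3 of 12 arrays, and a gene was its tested probe with the highest mean. Probes were named through RefSeq by accession (33895), symbol (9464) or synonym (489), and 12757 kept the file's name. Probe coordinates come from the array's design (mm9). The genes tested include models and clones with no symbol.

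The comparisons used limma 3.58.1 (R 4.3.3) and 1 model of group means with 8 residual and 3.22 prior degrees of freedom, two-sided, with p adjusted over all genes tested. Mice of a group are the replicates, each on 1 array. With 3 mice a group, limma's tests borrow the spread estimated over all genes and groups. Each mouse number occurs in every group, but the numbers do not pair mice: deviations from the group means correlated between -0.31 and 0.25 in same-numbered pairs and between -0.27 and 0.43 in others. All 10 members were named. From the other lists of granulocyte genes called genes were named, or else the 2 with the smallest F test p. Trem1 was named as well, for its part in a sum. The members and lists were chosen with earlier results of these data known. The fit was tested on simulated data, with 50 genes changed per size. Alternatives covered normalization, background correction, the dim filter, the authors' values, blocks, the off-tissue covariate and each array left out in turn. Promoters are RefSeq's on GRCm38.p6.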

Additional observations from a re-analysis of the deposited data

How the results depend on the processing

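Over 14 other settings limma called no member in any comparison or in the F test. With the replicate number as a block 0 members were called in each comparison, and the block changed no call of a member. Leaving out 1 array, the count ran from 0 to 2 for POL5551 against sham and for the F test, the 2 being S100a8 and S100a9 without sham mouse 2, and was 0 in the other comparisons. The slide as a fixed block could be fitted only for the arrays of slides 1, 2 and 5, which leave the 2-day group out. Testing only probes well above background on all 12 arrays left out S100a8 and S100a9. Scaling by the percentile over probe means was chosen after seeing the data.

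Of 40 differences of members followed, 21 kept their direction under all settings and left-out arrays. The others, none past the threshold in either direction, changed sign as follows, and the cause was not tested. With quantile normalization, median scaling and the authors' values Ctsg after POL5551 was 0.01. With quantile normalization and the authors' values Ltf after 5 days was 0.00, and with median scaling Mpo after 2 days was -0.02. With normexp S100a9 after 2 days was -0.09 and Lcn2 between 5 and 2 days -0.05. With the mean of its probes Mpo after 2 days was -0.43. With the slide as a fixed block Lcn2 was -0.23 and Ltf -0.09 after POL5551, and after 5 days Camp was -1.51, Lcn2 -1.28, Ngp -1.89 and S100a8 -0.33, values that rest on few arrays. With the off-tissue covariate Ctsg was 0.18 and Prtn3 -0.41 after POL5551, Elane 0.04 and Ltf 0.17 after 5 days, and Ngp -0.03 and Prtn3 -0.10 between 5 and 2 days.

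Leaving out 1 array turned the sign of these differences, none of which passed the threshold. After POL5551 Lcn2 ran from -0.15 to 0.82 and Ltf from -0.09 to 0.41. After 2 days Camp ran from -0.55 to 0.08, Ctsg from -0.66 to 0.02, Lcn2 from -0.24 to 0.36, Mpo from -0.16 to 0.25, S100a8 from -1.79 to 0.64 and S100a9 from -0.72 to 3.03. After 5 days Elane ran from -0.67 to 0.01, Lcn2 from -0.13 to 0.48 and Ltf from -0.50 to 0.21. Between 5 and 2 days Lcn2 ran from -0.10 to 0.43 and Ngp from -0.33 to 1.09.

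The count of all genes called moved more than that of the members. For POL5551 against sham it was 882, between 0 (slide as a fixed block) and 2594 (probes well above background on all arrays) in other settings, 184 with the replicate block, and 64 to 5304 without 1 array. For 2 days it ran from 0 to 20 and 2 to 160, for 5 days from 0 to 33 and 1 to 56, for 5 against 2 days from 0 to 7 and 0 to 13, for POL5551 against 5 days from 0 to 62 and 0 to 94, and for the F test from 25 to 3818 and 55 to 7897. Signal limits S100a8 most, as its probe was well above background on 8 of 12 arrays.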
